A study of Mus musculus with 26 samples.

Results

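AII amacrine cells and ON bipolar cells are interneurons of the mouse retina that become joined by gap junctions in the circuit that carries rod signals at night. Their transcripts were compared on 4 arrays, 2 of AII amacrine and 2 of ON bipolar cells, chosen by their sample labels from 26 arrays in all. The series holds 13 neuron subtypes of the retina with 2 replicates each, the replicates of a subtype having come from different litters. All animals were at postnatal day 6, an age at which the inner retina is still wiring and before eye opening. The retinas were dissociated with papain, and both populations were sorted by flow cytometry as GFP-positive cells with no antibody gate. The labels do not name the reporter lines. AII cells came from Swiss Webster x C57BL/6 mice and ON bipolar cells from C57BL/6 mice, so that strain and cell type cannot be told apart in any difference below. A second pair of sorts, CFP-positive cells of the MP line (mixed C57BL/6 x CD1), served for comparison: amacrine cells positive for the surface epitope VC1.1 and bipolar cells negative for it, again with 2 arrays each.

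In the rod pathway, rods contact rod bipolar cells, which excite AII amacrine cells rather than ganglion cells. AII cells pass the signal on through gap junctions built of connexin 36, the product of Gjd2, to ON cone bipolar cells, and through glycinergic synapses to OFF bipolar and OFF ganglion cells. ON bipolar cells, both rod and cone types, sense glutamate through the metabotropic receptor mGluR6, whose G protein cascade ends on the cation channel TRPM1.

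Levels are given as log2(intensity + 16) after quantile normalization of the 26 arrays. On this scale a deposited intensity of 1, called the floor, lies at 4.09 and the median of all probe sets at 6.14. Differences are AII minus ON bipolar in log2 units with their SE from a limma fit of all 26 arrays, and differences of low genes are understated on this scale. A gene passed at a Benjamini-Hochberg adjusted p under 0.05 over the 13951 genes tested, with the 2 means 1 log2 unit or more apart. Median deposited intensities were 43.99 and 45.5 on the AII arrays and 41.13 and 43.0 on the ON bipolar arrays, within the range of the other amacrine and bipolar arrays. Across genes, the correlation between replicates was 0.983 for AII and 0.973 for ON bipolar cells, and between an AII and an ON bipolar array it was 0.833 to 0.87. The number of arrays limits the precision, and p-values measure only the spread between sorts of separate litters. That spread is pooled over the 13 subtypes, so an SE can be far from the spread of the 2 types compared. For Ntng1 the SE was 0.31 although the AII arrays were 4.79 and 6.30. The SE of 0.95 for Lamp5 takes in the PaxCre arrays (SD 3.23).

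The 4 marker genes set the populations apart, with one that they shared. Slc32a1, the vesicular transporter of glycine and GABA, measured 10.54 and 10.42 in the AII arrays and 6.66 and 6.96 in the ON bipolar arrays. On the probe set used it was thus high in both AII arrays and low in both ON bipolar arrays, by 3.67 ± 0.25 (limma adjusted p = 5.47e-09, 12.8-fold). A second, dimmer probe set of Slc32a1 showed no such difference (0.03 ± 0.18). Isl1, a LIM homeobox factor of ON bipolar cells and of starburst amacrine cells, measured 9.36 and 10.10 in AII and 12.85 and 12.79 in ON bipolar arrays. All 4 values lay well above the floor and the groups did not overlap, at -3.08 ± 0.38 (adjusted p = 7.47e-06). Otx2, a homeobox factor of photoreceptors and bipolar cells, measured 9.94 and 9.66 against 11.94 and 12.31, a difference of -2.33 ± 0.50 (adjusted p = 0.00169). Gjd2 was high in all 4 arrays, at 12.03 and 12.10 in AII and 11.03 and 11.13 in ON bipolar cells. The difference of 0.98 ± 0.18 (adjusted p = 0.000365) fell just short of the 1 log2 unit required, and a second probe set of Gjd2 gave 1.89. Among the 7 amacrine and bipolar subtypes, AII cells had the highest mean level of Gjd2 and ON bipolar cells the next highest, ahead of PaxCre amacrine (10.17 ± 0.20, SD, n = 2) and MP bipolar cells (9.88 ± 0.26, SD, n = 2). Isl1 and Otx2 were not absent from the AII sort: the AII mean was number 4 of the 7 subtypes for each gene. Fewer cells of a type in a sort and less RNA per cell cannot be told apart in these data.

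**Figure D1:**
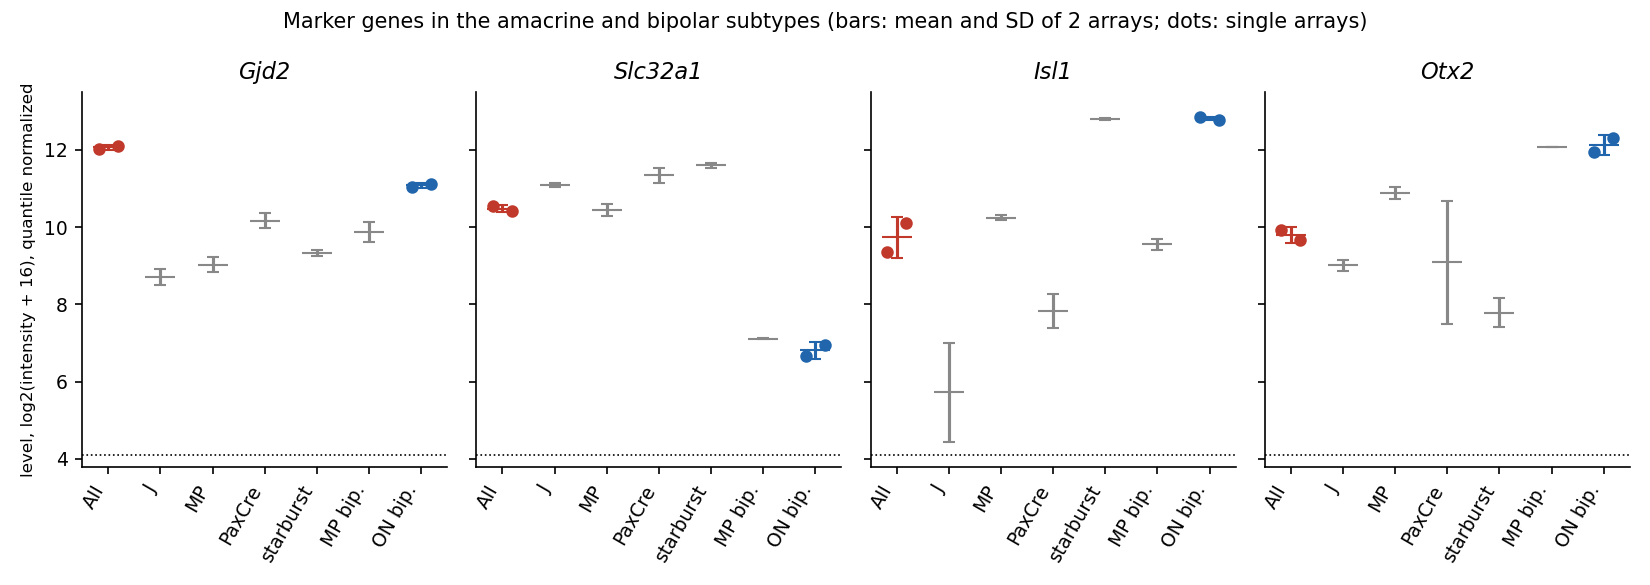
Levels of Gjd2, Slc32a1, Isl1 and Otx2 (log2(intensity + 16), vertical axes) in 5 amacrine and 2 bipolar subtypes, with the mean and SD of 2 arrays and, for AII (red) and ON bipolar cells (blue), each array as a dot; the dotted line is the floor at 4.09. Gjd2 is highest in AII at 12.03 and 12.10, with ON bipolar cells next at 11.03 and 11.13.

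Further markers lay on the side of their labels. Pax6, a master regulator of amacrine cells, was 10.85 and 11.23 in AII and 5.74 and 5.98 in ON bipolar cells (5.18 ± 0.26), while the median over its probe sets gave 0.95. Slc6a9, the plasma membrane glycine transporter GlyT1 by which AII cells hold glycine, was 11.81 and 11.68 against 6.34 and 6.30 (5.42 ± 0.22, 43.0-fold). A second, dimmer probe set of Slc6a9 gave only 1.02. The reelin adaptor Dab1, used to label AII cells, differed less, at 11.96 and 12.07 against 10.26 and 10.63 (1.57 ± 0.35). The homeobox gene Prox1, which marks AII cells but is also known from bipolar cells, was 11.76 and 11.63 against 9.01 and 10.34 (2.02 ± 0.43). The ON bipolar arrays were unequal for Prox1, and without replicate 1 of them the difference of 1.36 no longer passed (adjusted p = 0.0532). On the ON bipolar side, Pcp2, a G protein modulator of rod bipolar and Purkinje cells, was 5.56 and 5.55 in AII and 12.29 and 11.80 in ON bipolar cells. Trpm1 itself was 4.34 and 4.65 in AII, close to the floor, and 7.06 and 6.45 in ON bipolar cells (-2.26 ± 0.24). Grm6 was not analysed here. Thy1, which marks ganglion cells, was low in all 4 arrays (4.96 to 5.33).

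In all, 931 genes were higher in AII cells and 1511 were lower, 6.67% and 10.8% of the genes tested, and together 17.5% passed. The 2 arrays of one type all lay above the 2 of the other for each of these 2442 genes, as they did for 64.2% of all genes tested. The median difference over all genes was -0.04. Differences of at least 4 log2 units were measured for 76 genes higher in AII and 47 lower. Of the 931 genes higher in AII, AII cells had the highest mean of the 7 amacrine and bipolar subtypes for 532. Of the 1511 lower genes, ON bipolar cells had the highest mean for 716. Genes called higher in a subtype tend to rank it first, and the shares over all genes tested are not given here.

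The 12 genes with the largest differences towards AII included signalling, adhesion and receptor genes. Gria3, an AMPA receptor subunit, measured 11.64 and 11.72 in AII and 4.84 and 4.16 in ON bipolar cells, where it lay at or near the floor (7.18 ± 0.23, adjusted p = 2.21e-13). Lamp5, a lysosome-associated membrane protein of neurons, was 12.58 and 12.42 against 4.95 and 6.20 (6.93 ± 0.95). Tfap2b, the amacrine transcription factor AP-2 beta, was 12.54 and 12.35 against 5.59 and 5.66 (6.82 ± 0.36). These 3 genes were bright in both AII arrays and dim in both ON bipolar arrays. Lhfp was 12.53 and 12.70 against 5.80 and 6.09 (6.67 ± 0.17), and Dync1i1, an intermediate chain of the motor dynein, was 11.88 and 11.86 against 5.04 and 5.40 (6.65 ± 0.33). Cdh1, the adhesion molecule E-cadherin, was 11.17 and 11.41 against 4.69 and 4.90 (6.49 ± 0.37). Rbfox1, a neuronal splicing factor (6.52 ± 0.39), Shisa6, an auxiliary protein of AMPA receptors (6.41 ± 0.36), and Ret, the receptor of GDNF family ligands (6.04 ± 0.17), were also among the 12. The rest were the kinase gene Stk32b (7.04), Hao2, an oxidase of hydroxy acids (6.17), and Cacng5, another auxiliary AMPA receptor subunit (6.15). Second, dimmer probe sets gave -0.30 for Stk32b, -0.26 for Cacng5 and 0.30 for Ret, so those 3 rest on 1 probe set each. Lamp5, Lhfp, Dync1i1, Cdh1 and Hao2 had only 1 probe set. Second probe sets gave smaller differences for Gria3 (4.37) and Shisa6 (1.05). By contrast Tfap2b and Rbfox1 were as large on their second probe sets, at 7.29 and 6.36. Hao2 was above 10 in both AII arrays (10.65 and 10.55), while its mean in each of the other 6 amacrine and bipolar subtypes was at most 4.88.

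The 12 largest differences towards ON bipolar cells held several genes known from rod bipolar cells. Pcp2 led at -6.49 ± 0.23 (adjusted p = 1.04e-12, 90.2-fold higher in ON bipolar cells). Car8, a carbonic anhydrase-related protein, was 5.82 and 5.42 in AII and 11.86 and 11.43 in ON bipolar cells (-6.03 ± 0.58). Gng13, the G protein gamma subunit of the mGluR6 cascade, was 4.86 and 5.01 against 11.50 and 10.32 (-5.97 ± 0.40). Ntng1, which encodes the membrane-anchored guidance protein netrin-G1, was 4.79 and 6.30 against 11.47 and 11.45 (-5.91 ± 0.31). Every ON bipolar value of these genes lay far above every AII value, and arrays that did not overlap were part of the rule that chose them. Pcp4, a calmodulin regulator, remained above the median in AII at 7.19 and 7.08 and reached 12.91 and 12.70 in ON bipolar cells (-5.67 ± 0.39). Syt9, a calcium sensor of vesicle fusion (-5.65 ± 0.28), Sulf2, a sulfatase of heparan sulfate (-5.43 ± 0.25), and Rprm, a cell cycle inhibitor (-5.65 ± 0.36), followed, with the predicted gene Gm4792 (-6.08), Lrp2bp (-5.34) and Ankrd6 (-5.29). Cnmd, chondromodulin, was 4.18 and 4.09 in AII, the second value being the floor, and 10.72 and 9.08 in ON bipolar cells (-5.76 ± 1.09). Dimmer second probe sets gave -0.61 for Gng13, -0.36 for Lrp2bp, -1.05 for Sulf2, -1.28 for Ankrd6 and -2.26 for Car8. They gave -7.14 for Pcp2 and -5.86 for Ntng1. Gm4792, Cnmd, Pcp4, Rprm and Syt9 had only 1 probe set.

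**Figure D2:**
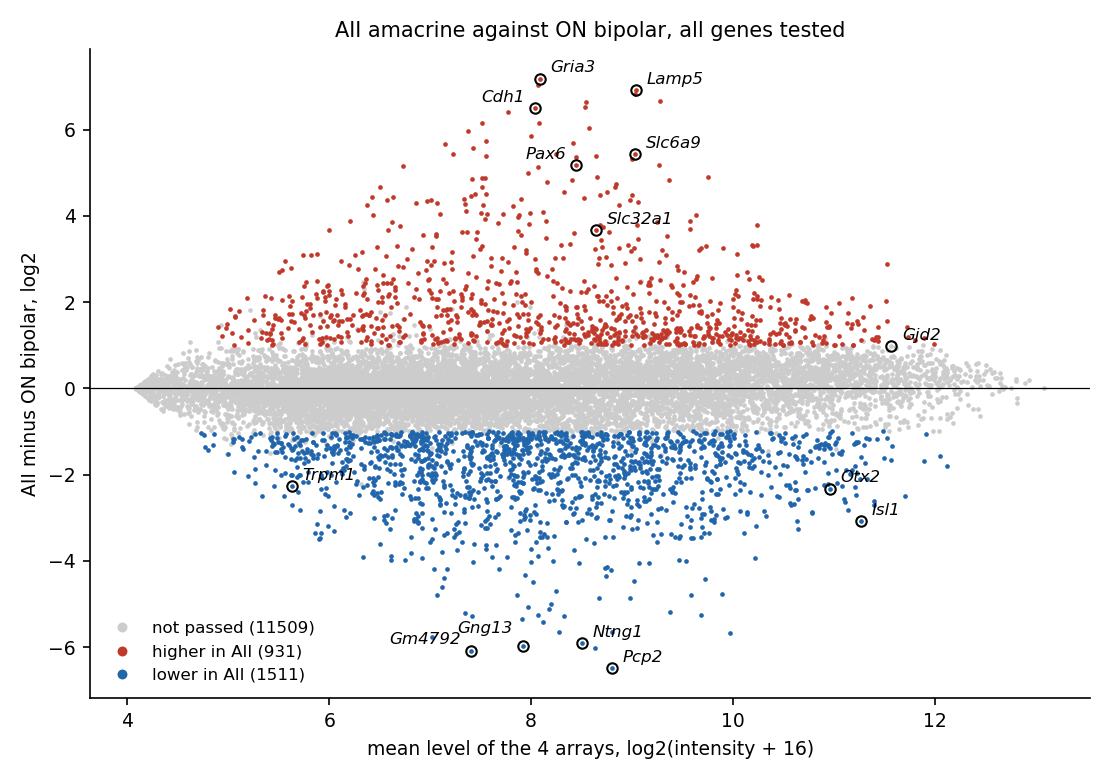
Difference between AII amacrine and ON bipolar cells (log2, vertical axis) against the mean level of the 4 arrays (log2(intensity + 16), horizontal axis) for the 13951 genes tested. Red points are the 931 genes that passed as higher in AII, blue points the 1511 that passed as lower and grey points the rest; circled genes are named, with Gria3 at 7.18 and Pcp2 at -6.49.

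Coupling genes and the proteins that hold or regulate gap junctions were read next. Of 18 connexin and pannexin genes listed, 15 were measured and 6 passed the filter on dim genes (at least 2 of the 26 arrays above 6.14); 1 of these 6 was higher in AII and none was lower, with a median of 0.57. That share of 16.7% is near the 17.5% called over all genes. The 1 gene was Gjc1, which encodes connexin 45, the partner that some ON cone bipolar cells contribute to these junctions. It measured 10.97 and 10.94 in AII and 9.17 and 9.14 in ON bipolar cells (1.80 ± 0.29, adjusted p = 0.000128), but its second probe set did not pass (0.84 ± 0.61, adjusted p = 0.386). Both connexin genes of the AII to cone bipolar junction were above 9 in all 4 arrays on the probe sets used. Such levels were not particular to these cells: the means of the ganglion cell subtypes were 9.52 to 11.04 for Gjc1 and 10.76 to 11.26 for Gjd2. Of the 7 amacrine and bipolar subtypes, ON bipolar cells had the lowest mean of Gjc1 (9.15). The other tested members did not pass, among them Panx1 (-0.39 ± 0.27) and Gja1, the astrocyte connexin 43 (0.89 ± 0.53).

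Among 15 tested genes of gap junction scaffolds and regulators, 6 were higher in AII and 2 lower (53.3% called, against 17.5% of all genes), with a median of 0.72 against -0.04 over all genes. Dopamine receptor genes moved in both directions. Drd4, a receptor of the D2 class, was 8.14 and 7.69 in AII and 5.15 and 4.34 in ON bipolar cells (3.16 ± 0.41). Drd1, the receptor through which dopamine uncouples AII cells in the adult, was instead lower in AII, at 7.50 and 7.72 against 9.83 and 10.75 (-2.68 ± 0.37). As for every gene that passed, the groups did not overlap for either one. Second probe sets gave 0.48 for Drd4 and -4.09 for Drd1, and Drd1 had its 2 highest means in MP bipolar and ON bipolar cells. Drd2 was 9.32 and 9.21 against 8.55 and 7.60 (1.19 ± 0.29) and lost its call without ON bipolar replicate 2 (0.71, adjusted p = 0.111). Sipa1l3, a scaffold known from electrical synapses, was 11.67 and 11.62 against 9.30 and 9.64 (2.17 ± 0.24). The scaffold Afdn was higher by 1.16 ± 0.19 and Mpdz lower, at -1.71 ± 0.35. As the median over probe sets, Afdn came to 0.58 and Mpdz to -0.29, and neither passed. Tjp1, the ZO-1 protein that binds connexin 36, averaged 11.10 ± 0.14 (SD, n = 2) against 10.04 ± 0.31 (1.06 ± 0.22). Without AII replicate 2 or ON bipolar replicate 2, Tjp1 came to 0.96 and 0.84 and no longer reached 1. Grik2, also on this list, is given with the glutamate receptors.

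Many transcription factors of the amacrine and bipolar lineages differed between the populations. Of 33 tested amacrine factors, 11 were higher in AII and 6 lower (51.5% called, median 0.31), and of 20 tested bipolar factors none was higher and 9 were lower (45% called, median -0.72). Over all genes, 6.67% were higher and 10.8% lower. After Tfap2b and Pax6, the largest differences towards AII were those of Tfap2a (11.74 and 11.83 against 6.74 and 7.17, 4.83 ± 0.45), Neurod2 (11.48 and 11.01 against 6.98 and 6.54, 4.48 ± 0.76) and Nfia (11.25 and 11.78 against 6.93 and 8.33, 3.89 ± 0.36). Neurod2 and Nfia, known from glycinergic amacrine cells, had their highest means of the 7 subtypes in AII. The zinc finger factor Myt1l was higher by 3.54 ± 0.29 and the homeobox factor Barhl2 by 2.40 ± 0.30. Amacrine factors that were lower in AII than in ON bipolar cells were led by Zfhx3 (6.88 and 7.49 against 11.83 and 12.14, -4.80 ± 0.34), a large zinc finger homeobox factor. Meis2, a factor of GABAergic amacrine cells, was 7.08 and 6.93 against 8.61 and 8.91 (-1.76 ± 0.45), a call that ended with the median over its probe sets (-0.88, adjusted p = 0.0832).

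The bipolar factors that were lower in AII were led by Lhx4, a LIM homeobox factor of cone bipolar cells, at 5.09 and 5.73 in AII and 9.18 and 9.69 in ON bipolar cells (-4.03 ± 0.40). Prdm8, needed for rod bipolar and OFF bipolar cells to form, was 8.10 and 8.40 against 12.19 and 12.17 (-3.92 ± 0.42). Lhx3 (-3.64 ± 0.32), Vsx1 (-2.95 ± 0.36) and Tbx2 (-1.89 ± 0.24) were also lower, but the second probe set of Lhx3 gave 0.18. Crx, the photoreceptor and bipolar homeobox factor, was 9.45 and 9.05 against 11.14 and 11.01 (-1.83 ± 0.44), and the call ended without AII replicate 2 (-1.63, adjusted p = 0.0518). Neurod4 (11.57 to 12.13), Neurod1 (11.72 to 12.29) and St18 (11.27 to 11.77) were high in all 4 arrays, and none of them passed.

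Slc6a9 and Slc32a1, which take up and load glycine, were higher in AII cells, whereas the vesicular glutamate transporters were dim in both populations. Of 9 tested genes of inhibitory transmitter synthesis and transport, these 2 were higher in AII and 1 was lower (33.3% called, against 17.5% of all genes). The GABA-synthesizing enzyme genes did not pass: Gad1 was 5.78 and 5.73 against 5.08 and 5.06, and Gad2 8.26 and 8.01 against 7.49 and 7.21. In the PaxCre and starburst amacrine cells, the mean of Gad1 was above 12. Slc6a5, which encodes the glycine transporter GlyT2, was near the median in all 4 arrays (5.98 to 6.24) on the probe set used, but passed as higher in AII on its second probe set (3.28 ± 0.26, adjusted p = 6.34e-08) and as the median over its probe sets (1.65). Slc17a7, the vesicular glutamate transporter of mature bipolar cells, was 6.18 and 6.19 in AII and 6.57 and 6.37 in ON bipolar cells (-0.28 ± 0.25, adjusted p = 0.472), and a difference between the types was not detected.

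Glutamate transporters of the plasma membrane differed in both directions, 2 of the 8 tested genes of glutamate release and uptake being higher in AII and 2 lower (50% called, against 17.5% of all genes). Slc1a7, the transporter EAAT5 of rod bipolar terminals and photoreceptors, was 6.25 and 6.84 in AII and 10.63 and 9.97 in ON bipolar cells (-3.76 ± 0.36). Slc1a2 was 6.11 and 6.17 against 8.63 and 9.35 (-2.85 ± 0.30). In the other direction, Slc1a6 was 7.15 and 7.59 against 4.18 and 4.37 (3.09 ± 0.41) and Slc1a1 was 9.05 and 8.47 against 7.35 and 7.01 (1.58 ± 0.26). The arrays of the types did not overlap for any of the 4, as for every gene that passed. A second probe set of Slc1a2 gave -0.11, and one of Slc32a1 gave 0.03.

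Genes of the mGluR6 cascade that passed were all lower in AII. Of 20 listed genes, 17 were tested, 11 were lower in AII (64.7% of those tested, against 10.8% of all genes), none was higher and 6 did not pass, and the median was -2.26. Besides Pcp2 and Gng13, the G protein beta subunit Gnb3 was 6.67 and 6.89 in AII and 11.43 and 11.08 in ON bipolar cells (-4.47 ± 0.28). Gnao1, the alpha subunit that the receptor activates, was 8.27 and 8.22 against 10.31 and 10.25 (-2.03 ± 0.28), although a second probe set gave 0.28. The orphan receptor Gpr179, which anchors the regulators of this G protein, was 6.36 and 6.52 against 9.24 and 8.65 (-2.50 ± 0.28). Rgs11, one of those regulators, was 5.66 and 5.93 against 9.15 and 8.66 (-3.12 ± 0.31), and its anchor gene Rgs9bp was lower in AII at -3.32 ± 0.32. All ON bipolar values of these genes lay above all AII values, as for every gene that passed as lower in AII. Lrit1 and Lrit2, leucine-rich repeat membrane proteins of photoreceptor to bipolar synapses, were lower in AII at -2.91 ± 0.54 and -3.57 ± 0.59, with Lrit2 unequal between the ON bipolar arrays (9.97 and 8.24). Members that did not pass included Rgs7 (0.04 ± 0.23), Gnb5 (-0.68 ± 0.25, but -1.14 and past the threshold on its second probe set) and Nyx, nyctalopin (7.38 and 7.32 against 8.29 and 7.50, -0.54 ± 0.25).

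**Figure D3:**
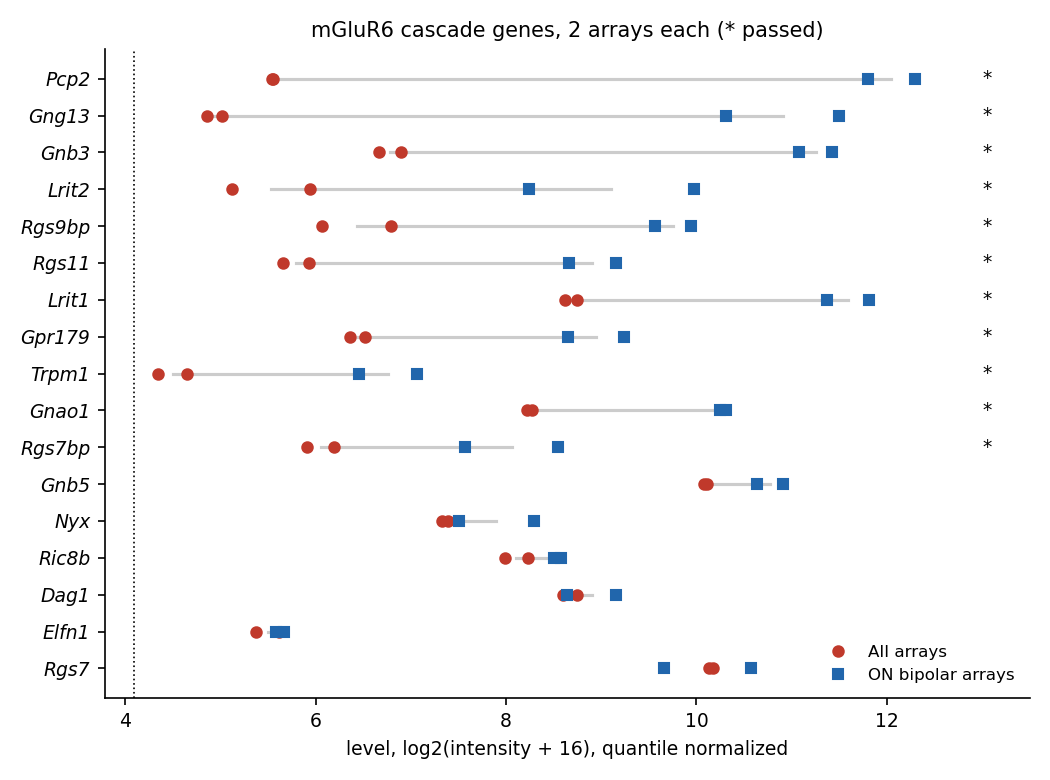
Levels of the 17 tested mGluR6 cascade genes (log2(intensity + 16), horizontal axis) in the 2 AII arrays (red dots) and the 2 ON bipolar arrays (blue squares), ordered by difference, with a grey line between the means and an asterisk for the 11 that passed. Pcp2, at 5.56 and 5.55 against 12.29 and 11.80, lies furthest apart, and the arrays overlap for Rgs7.

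Promoter sequences are shown for Trpm1, Lrit1 and Lrit2, because these are the 3 cascade genes lower in AII whose window holds TAATCC, the motif bound by CRX and OTX2, and for Gjd2, the gene that both cell types share, whose window holds it too. They were chosen after the values were seen. Sequences come from RefSeq on GRCm38.p6, run from 250 bases before to 50 bases after the transcript start on the strand of the gene, and have the motif, on either strand, in capitals.
Trpm1, chr7:64153585-64153884, plus strand: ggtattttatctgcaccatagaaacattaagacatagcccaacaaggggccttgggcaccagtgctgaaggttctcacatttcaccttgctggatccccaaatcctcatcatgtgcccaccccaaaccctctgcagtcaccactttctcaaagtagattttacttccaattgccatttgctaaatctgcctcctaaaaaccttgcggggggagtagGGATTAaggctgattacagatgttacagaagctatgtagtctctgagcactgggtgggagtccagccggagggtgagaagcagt
Lrit1, chr14:37054580-37054879, plus strand: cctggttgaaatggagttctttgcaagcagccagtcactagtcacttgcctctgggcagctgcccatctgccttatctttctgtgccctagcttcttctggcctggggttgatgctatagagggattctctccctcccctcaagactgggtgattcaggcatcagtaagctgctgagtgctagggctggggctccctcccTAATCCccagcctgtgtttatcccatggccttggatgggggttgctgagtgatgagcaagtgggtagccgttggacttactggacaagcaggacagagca
Lrit2, chr14:37067779-37068078, plus strand: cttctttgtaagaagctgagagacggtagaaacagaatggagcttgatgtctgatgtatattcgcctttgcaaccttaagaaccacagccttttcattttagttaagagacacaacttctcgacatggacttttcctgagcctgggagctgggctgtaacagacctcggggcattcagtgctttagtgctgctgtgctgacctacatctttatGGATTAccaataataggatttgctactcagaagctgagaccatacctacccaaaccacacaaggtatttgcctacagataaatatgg
Gjd2, chr2:114013570-114013869, minus strand: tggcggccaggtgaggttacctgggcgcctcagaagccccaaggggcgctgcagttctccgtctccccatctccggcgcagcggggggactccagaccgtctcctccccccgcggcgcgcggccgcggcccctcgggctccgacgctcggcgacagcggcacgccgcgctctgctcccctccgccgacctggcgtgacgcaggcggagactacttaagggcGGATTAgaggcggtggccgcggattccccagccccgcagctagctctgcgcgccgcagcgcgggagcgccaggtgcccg

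In these windows the first base of the motif lay 34 bases before the start of Trpm1, 50 before that of Lrit1, 37 before that of Lrit2 and 29 before that of Gjd2. Of the cascade genes lower in AII, 8 had a window in the table and 3 held the motif. The share over all genes tested was 5.81% (652 of 11222 windows, the first window of each gene), against 6.68% of the genes lower in AII (82 of 1228) and 5.03% of the genes higher in AII (37 of 735). None of the 11 windows of the 12 genes lowest in AII held it, and 1 of the 8 windows of the 12 highest did (Lamp5). Of the other marker genes, Isl1 also held it, 177 bases before its start. Over all 27025 genes of the table, 7.16% held the motif. These shares are descriptions and were not tested.

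Glutamate receptor genes leaned towards AII cells, which receive rod bipolar input on AMPA receptors. Of 29 tested genes, 12 were higher in AII and 3 lower (51.7% called, against 17.5% of all genes, median 0.26). Beside Gria3, Gria4 was 11.62 and 11.58 in AII and 8.55 and 8.40 in ON bipolar cells (3.12 ± 0.28). Gria2, the subunit that limits calcium entry, was 11.69 and 11.70 against 9.86 and 10.45 (1.54 ± 0.24). Of the 4 AMPA receptor subunit genes, Gria1 alone was not higher in AII, at 7.51 and 8.11 against 8.82 and 8.27 (-0.74 ± 0.38, adjusted p = 0.175). Grik2, a kainate receptor subunit, was 11.13 and 11.39 against 5.26 and 5.88 (5.69 ± 0.28), but its second, dimmer probe set gave 1.40. Grm3, a metabotropic receptor of the inhibitory class, was 9.96 and 9.73 against 4.70 and 5.29 (4.85 ± 0.41), and the auxiliary subunit gene Cacng3 was higher by 2.22 ± 0.36. Lower in AII were Grid1, which encodes a delta receptor (7.36 and 7.68 against 9.98 and 9.33, -2.14 ± 0.38), Grm5 (-1.62 ± 0.24) and Grik1 (-1.56 ± 0.44). Grik1 lost its call without either AII array (-1.56 and -1.55) or without ON bipolar replicate 2 (-0.87). Second, dimmer probe sets gave -0.09 for Grid1, -0.83 for Grm5 and -0.91 for Grik1.

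Receptors for glycine and GABA split by subunit. Of 20 tested genes, 6 were higher in AII and 4 lower (50% called, against 17.5% of all genes), with a median of 0.09. Glra3, a glycine receptor alpha subunit, was 9.58 and 10.30 in AII and 4.51 in both ON bipolar arrays (5.43 ± 0.48). Glra2 was 9.43 and 9.54 against 5.33 and 5.08 (4.28 ± 0.22). Glra1, the alpha subunit of mature bipolar and ganglion cell synapses, went the other way, at 4.76 and 5.21 in AII against 7.57 and 6.73 (-2.17 ± 0.48). Glrb, the beta subunit that all of these join, was high in all 4 arrays (10.51 to 11.49) and did not pass, but its second probe set (1.53 ± 0.47, adjusted p = 0.0281) and the median over its probe sets (1.11) passed as higher in AII. The rho subunits of GABA-C receptors, which shape rod bipolar terminals, were lower in AII: Gabrr1 was 7.91 and 8.27 against 11.58 and 11.31 (-3.35 ± 0.45), and Gabrr2 was 4.51 and 4.26 against 9.13 and 7.44 (-3.90 ± 0.53). Gabra3 was higher in AII by 3.62 ± 0.31 and Gabrb2 lower, at -2.26 ± 0.26. Of the chloride transporters that set the sign of these responses, Slc12a2, the importer NKCC1, was 12.04 and 11.99 against 10.22 and 10.32 (1.74 ± 0.28), and Slc12a5, the exporter KCC2, was above 12 in all 4 arrays (-0.12 ± 0.16). Dimmer second probe sets gave -0.01 for Glra3, -0.23 for Gabra3 and -0.0007 for Glra1.

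**Figure D4:**
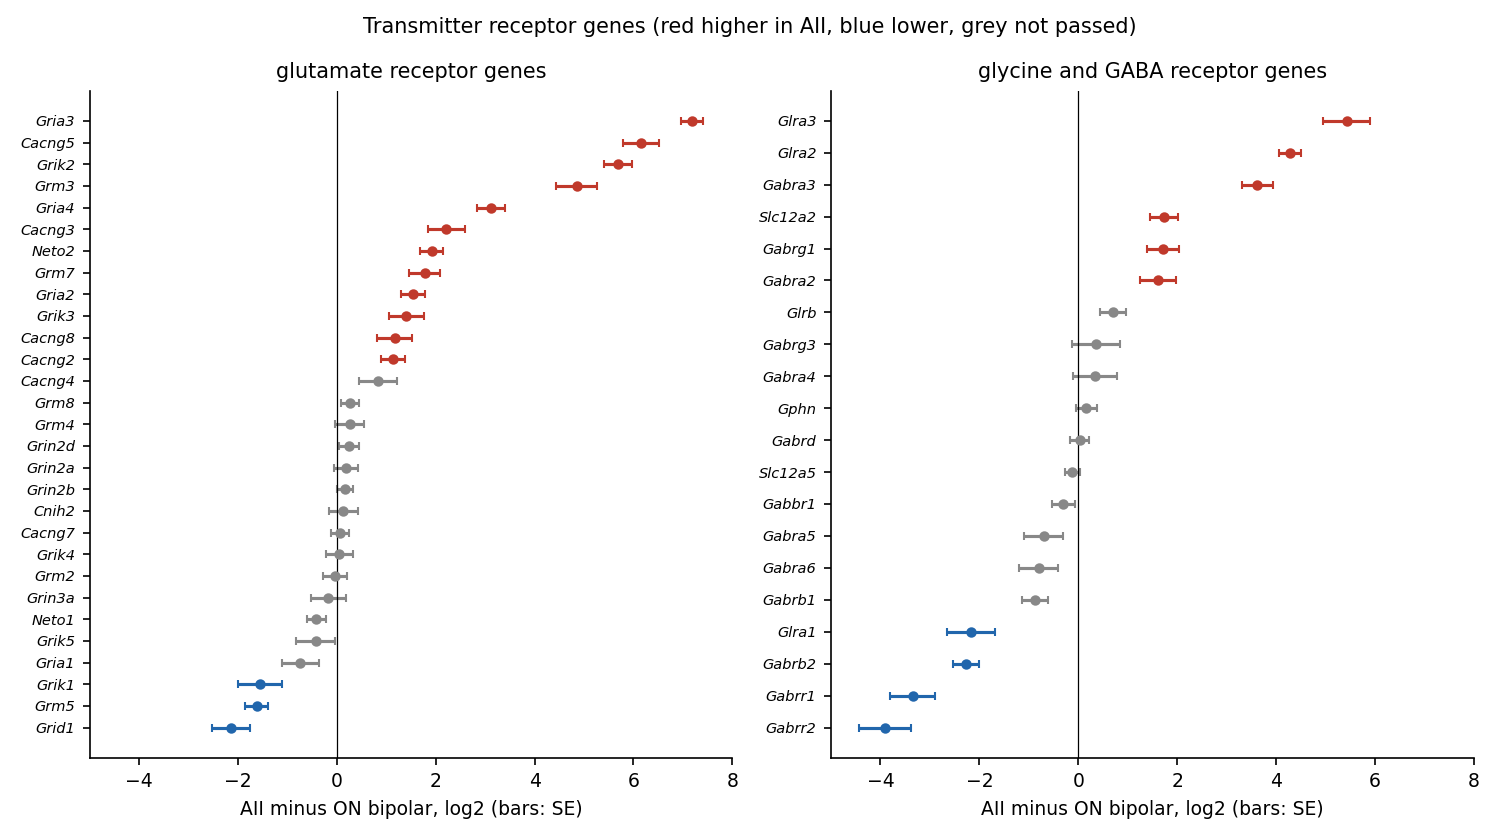
Difference between AII and ON bipolar cells (log2, horizontal axes, bars showing the SE) for the 29 tested glutamate receptor genes (left) and the 20 tested glycine and GABA receptor genes (right), in red where higher in AII, blue where lower and grey where not passed. Gria3 stands at 7.18 and Glra3 at 5.43 on the AII side, Gabrr2 at -3.90 on the ON bipolar side.

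Genes of vesicle release differed in both directions, several calcium channel subunits among them. Of 60 tested genes of ribbon and conventional release, 9 were higher in AII, 10 lower and 41 did not pass (31.7% called, against 17.5% of all genes), with a median of -0.01. Cplx3, the complexin of ribbon synapses and AII cells, was close to 12 in all 4 arrays (11.81 to 12.02), as was Snap25 (11.85 to 12.26). Ctbp2, whose locus gives the ribbon protein RIBEYE, was lower in AII at a mean of 11.18 ± 0.10 (SD, n = 2) against 12.11 ± 0.16 (-0.93 ± 0.19), short of the required 1. It passed on the columns as deposited (-1.02), with arrays shifted to 1 median (-1.08), and without AII replicate 1 (-1.002) or ON bipolar replicate 1 (-1.05), while its second probe set gave -0.34. Of the release-priming proteins, Unc13c was 7.75 and 8.18 against 11.32 and 11.51 (-3.45 ± 0.27) and Unc13b was lower at -2.40 ± 0.42. Their second probe sets gave -2.77 for Unc13c and -0.56 for Unc13b. The channel subunits Cacna1f and Cacna2d4, both known from ribbon synapses of photoreceptors and bipolar cells, were 4.18 and 4.41 against 7.58 and 6.66 (-2.83 ± 0.30) and 5.62 and 5.78 against 8.47 and 8.67 (-2.87 ± 0.32). Cacna2d3 was lower in AII at -3.71 ± 0.35. Cacna1d, the L-type subunit also used by AII cells, did not pass (10.61 and 10.86 against 10.23 and 10.46, 0.39 ± 0.22). Higher in AII were Cacnb4 (2.13 ± 0.21), the vesicle GTPase Rab3c (1.74 ± 0.16, but 0.18 on its second probe set), Syt4 (1.65 ± 0.19) and the active zone scaffold Erc2 (1.57 ± 0.24).

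Genes of sodium and potassium channels were mostly higher in AII where they passed: 10 of 33 tested were higher and 3 lower (39.4% called, against 17.5% of all genes, median 0.11). AII cells fire sodium spikes, and Scn1a, which encodes a sodium channel alpha subunit, was 11.17 and 11.60 against 7.82 and 8.34 (3.31 ± 0.23). Scn2a was 9.57 and 9.86 against 7.68 and 7.49 (2.13 ± 0.41), and the beta subunit gene Scn3b was higher by 2.46 ± 0.21. Kcnh1, an EAG potassium channel, was 10.52 and 10.43 against 5.42 and 5.52 (5.0 ± 0.23), with its highest mean of the 7 subtypes in AII. Kcna4 was higher by 2.08 ± 0.43, but its second probe set gave 0.04. The modulatory subunit gene Dpp10 was lower in AII, at 5.46 and 5.36 against 8.28 and 8.33 (-2.89 ± 0.28). Kcnma1, the BK channel, was high in all 4 arrays (11.75 to 11.97) and did not pass.

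Of 22 tested genes of calcium-binding proteins, the usual immunolabels of these cells, 6 were higher in AII and 7 lower (59.1% called, against 17.5% of all genes). Calb2, calretinin, was 10.43 and 10.68 in AII and 5.59 and 5.94 in ON bipolar cells (4.79 ± 0.46), and Necab1 was 11.12 and 11.21 against 6.10 and 6.92 (4.66 ± 0.36). Ncald, neurocalcin delta, was higher in AII by 2.40 ± 0.30. Cabp5, a calmodulin-like protein of rod and cone bipolar cells, was 6.22 and 7.35 against 12.29 and 11.67 (-5.20 ± 0.55). Scgn, secretagogin of cone bipolar cells, averaged 6.98 ± 0.12 (SD, n = 2) against 9.87 ± 0.19 (-2.88 ± 0.39). Cabp2 was listed at the floor of 4.09 in both AII arrays and was 6.41 and 5.65 in ON bipolar cells (-1.94 ± 0.26).

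Adhesion and synapse recognition genes differed in large numbers. Of 122 tested, 29 were higher in AII and 33 lower, 50.8% in all against 17.5% of all genes, with a median of -0.12. Cbln4, a secreted cerebellin, was 10.14 and 10.70 in AII and 4.52 and 4.86 in ON bipolar cells (5.73 ± 0.43). Plxna2, a semaphorin receptor, was 10.31 and 10.38 against 7.08 and 7.04 (3.29 ± 0.18), and Lsamp and Cdh7 were higher by 3.09 ± 0.23 and 2.83 ± 0.28. Among protocadherins, Pcdh8 was 6.27 and 6.85 against 11.36 and 11.46 (-4.85 ± 0.34) and Pcdh9 was 6.45 and 6.87 against 10.45 and 11.18 (-4.16 ± 0.26). Lrrtm1, a postsynaptic organizer, was 5.0 and 4.52 against 9.40 and 8.09 (-3.99 ± 0.49). The guidance receptors Robo2 (-3.90 ± 0.54) and Unc5d (-3.49 ± 0.35), the immunoglobulin superfamily recognition gene Sdk2 (-3.25 ± 0.31, but -0.29 on its second probe set) and Cdh9 (-3.12 ± 0.35) were lower in AII. As for every gene that passed, the arrays of the 2 types did not overlap for any gene named in this group.

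Lists of subtype markers, drawn up with adult retina in mind and with earlier results of these data known, were set beside the arrays. Their shares called are therefore descriptions and no separate support, and some members are also on other lists. Of 18 tested AII markers, 13 were higher in AII and 2 lower (83.3% called, against 17.5% of all genes), with a median of 2.37. Car2, carbonic anhydrase 2, was 11.94 and 12.33 against 7.59 and 9.08 (3.80 ± 0.53), and Dner, a Notch ligand, was 12.97 in both AII arrays against 9.98 and 10.21 (2.88 ± 0.15). The 2 lower members were the dopamine receptor Drd1 and the glycine receptor Glra1 described above. Of 13 tested rod bipolar markers, 11 were lower in AII and none higher (84.6% called, median -2.57). Strip2 was 5.70 and 5.67 against 11.33 and 10.60 (-5.28 ± 0.55), and Prkca, protein kinase C alpha, the classic rod bipolar label, was 9.55 and 9.91 against 12.58 and 12.52 (-2.82 ± 0.22). Vstm2b (-2.91 ± 0.38) and Rpa1 (-2.57 ± 0.22) moved the same way. The ON cone bipolar list was less uniform, with 5 of 14 tested members lower in AII and 2 higher (50% called, median -0.80). Of 15 tested OFF bipolar markers, 9 were also lower in AII and 1 was higher (66.7% called, median -1.28), although the cells were labelled ON bipolar. Fezf2, a factor of OFF bipolar cells, was near the floor or median in all 4 arrays (5.09 to 5.76), against a mean of 10.88 in MP bipolar cells. Rod bipolar and ON cone bipolar cells were not sorted apart, and their parts in the ON bipolar arrays were not tested.

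Whether these differences were also those of another amacrine and bipolar pair was asked with the MP sorts, in a test of the difference of differences, (AII minus ON bipolar) minus (MP amacrine minus MP bipolar). It passed for 1842 genes (13.2%), 671 with a positive (4.81%) and 1171 with a negative sign (8.39%), and without AII replicate 2 for 1212. Of the 2442 genes called between AII and ON bipolar cells, 1287 (52.7%, and 9.23% of the genes tested) also passed this test. Both tests hold the same AII minus ON bipolar difference, so genes called for it tend to pass the other, and the share is no separate support. The MP pair itself differed in 1168 genes (8.37%). In the same direction as AII against ON bipolar cells were 492, which is 20.1% of the AII and ON bipolar calls and 42.1% of the MP calls, and 76 were opposite. For 2 class markers this test did not pass: Slc32a1 differed by 3.67 and 3.34 (difference 0.33 ± 0.35, adjusted p = 0.633) and Otx2 by -2.33 and -1.18 (-1.14 ± 0.70, adjusted p = 0.34). Lhfp (6.67 and 6.53) and Ret (6.04 and 6.49) were among the largest differences of both pairs. For Gjd2 and Isl1 it did. Gjd2 was higher in AII by 0.98 but lower in MP amacrine than in MP bipolar cells (-0.86), a difference of 1.84 ± 0.25 (adjusted p = 6.64e-05), and Isl1 differed by -3.08 and 0.70 (-3.78 ± 0.54).

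The largest positive differences of differences belonged to Rbfox1 (7.15 ± 0.56), Cdh1 (6.74 ± 0.53), Ccsap, a centriole and spindle protein gene (6.70 ± 0.44), Ntrk3, the receptor of neurotrophin 3 (6.34 ± 0.38), Cbln4 (6.21 ± 0.61) and the atypical cadherin Fat3 (6.19 ± 0.56). Ntrk3 illustrates them: it was 10.34 and 10.11 in AII and 6.45 and 6.81 in ON bipolar cells, but averaged 6.0 in MP amacrine and 8.7 in MP bipolar cells. Fat3, which shapes amacrine dendrites, was 11.96 and 11.84 against 8.38 and 8.77 and averaged 7.6 in MP amacrine and 10.5 in MP bipolar cells. Other amacrine subtypes were also high for Fat3 (11.85 in J, 12.20 in PaxCre), Rbfox1 (11.87 in PaxCre, 12.61 in starburst), Cbln4 (10.20 in J) and Cdh1 (10.85 in starburst). Ccsap and Ntrk3 were not, with other amacrine means of at most 7.49 and 7.36. The MP amacrine arrays were unequal for Fat3 (SD 1.26) and Rbfox1 (SD 1.15). On the negative side stood Pcdh8 (-8.77 ± 0.48), Sulf2 (-7.40 ± 0.35), Chodl, chondrolectin (-6.90 ± 0.43), Ntng1 (-6.15 ± 0.44), Shisal1 (-6.13 ± 0.60) and Gm4792 (-5.92 ± 0.42). Pcdh8 was 6.27 and 6.85 in AII, the lowest mean of the 7 subtypes, while its mean was 11.2 in MP amacrine and 7.3 in MP bipolar cells. For Pcdh8, Sulf2, Chodl and Shisal1 the 2 pairs differed in opposite directions. Second probe sets gave 0.53 for Ntrk3 and -0.86 for Sulf2, and neither passed.

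**Figure D5:**
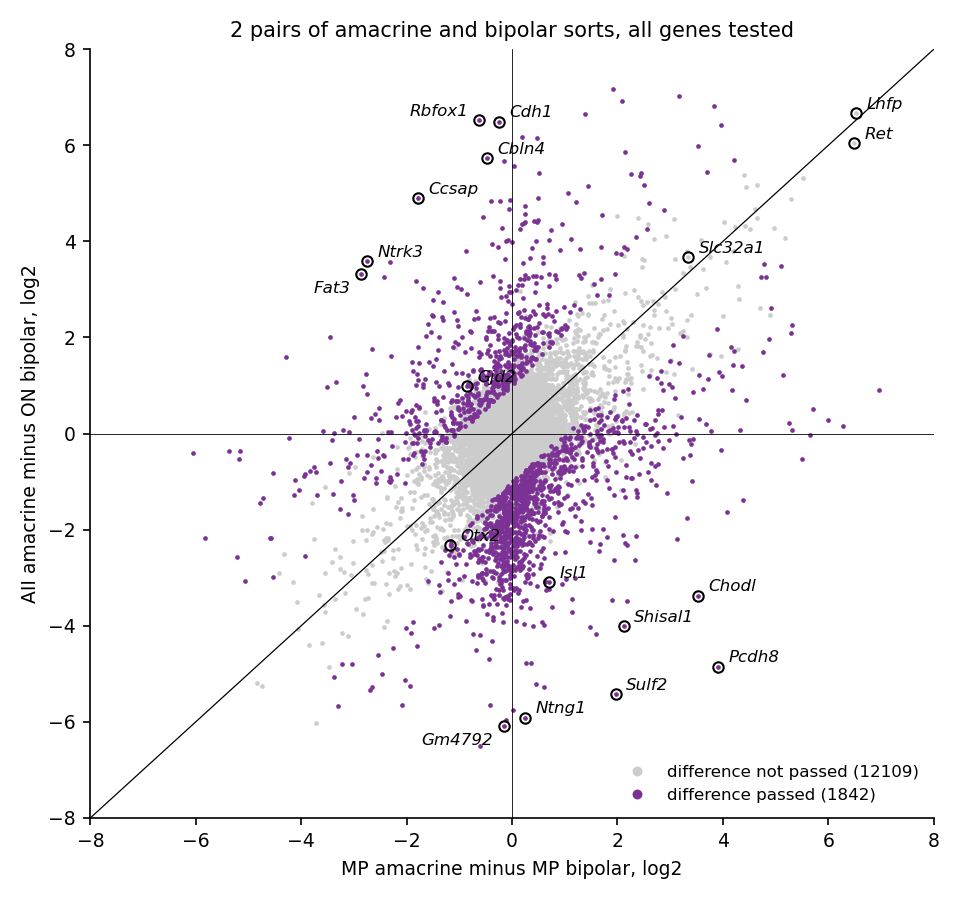
Difference between AII and ON bipolar cells (log2, vertical axis) against that between MP amacrine and MP bipolar cells (log2, horizontal axis) for the genes tested, with the 1842 genes whose difference of differences passed in purple and the others in grey; the diagonal marks equal differences. Lhfp, Ret and Slc32a1 lie near the diagonal, Rbfox1 and Cdh1 far above it and Pcdh8 far below.

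Markers of other retinal cells were read in the same 4 arrays. No ganglion cell marker (16 tested) and no microglia marker (10 tested) passed. The ganglion cell markers Rbpms and Sncg were below 5 in all 4 arrays. The 17 measured ganglion cell markers summed to 689 to 966 intensity units in AII and 572 to 777 in ON bipolar cells. Of 13 tested rod markers, 1 was higher in AII and 3 lower. The 14 measured rod markers summed to 7791 and 9026 in AII and 10482 and 7427 in ON bipolar arrays. Sag, rod arrestin, and Pdc, phosducin, were above 10 in every one of the 4 arrays (Sag 10.47 to 11.10, Pdc 11.19 to 11.55), and neither passed. Of 8 cone markers, Gngt2 alone passed, at 5.13 and 5.01 in AII and 8.97 and 9.54 in ON bipolar cells (-4.18 ± 0.61). Of 11 tested Müller glia markers, Car2 was higher in AII and Glul, glutamine synthetase (8.78 and 7.96 against 11.30 and 11.29, -2.93 ± 0.31), and Clu were lower, while Aqp4 was below 5 in all 4 arrays on the probe set used but lower in AII on its second (-3.17 ± 0.38, adjusted p = 1.01e-05). The horizontal cell list had 2 of 6 tested members higher in AII, the vascular list 1 of 8 higher and 1 lower, and the dividing progenitor list 3 of 14 higher. The shares called were 30.8% for rod, 12.5% for cone, 27.3% for Müller glia, 33.3% for horizontal cell, 25% for vascular and 21.4% for progenitor markers, against 17.5% of all genes. Among 14 immediate early and stress genes, 3 were higher in AII and 2 lower (35.7% called), with Nr4a1 at 8.36 and 7.90 against 10.40 and 9.75 (-1.94 ± 0.28). Of 11 housekeeping genes, 2 ribosomal protein genes, Rps18 (-1.69 ± 0.24) and Rpl13a (-1.58 ± 0.21), were lower in AII, a share of 18.2%. The part of other cells and of dissociation in the differences above was not tested.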

How the data were processed

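Transcripts of sorted neurons from the retina of mice at postnatal day 6 were measured on 26 single-colour oligonucleotide arrays, after 2 rounds of amplification and biotin labelling per the labels' protocols. The deposited table holds linear intensity values per probe set, as made by the authors; how they were corrected and scaled is not given in the sources used here. Of 45037 probe sets without the 64 controls, 34945 had 1 gene symbol, 932 several and 9160 none. Symbols were updated by gene identifier for 34741, and those with several or none were left out.

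Values were taken as log2(intensity + 16) and quantile normalized over the 26 arrays. The brightest probe set stood for each of 18193 genes, and 13951 genes with at least 2 arrays above the overall median of 6.14 were tested. A limma model (limma 3.58.1, R 4.3.3) of the 13 subtype means gave differences, SE and Benjamini-Hochberg adjusted p-values. Only its AII minus ON bipolar difference was tried on simulated data, with independent noise drawn from the fitted variances. That trial cannot show how well the model suits these arrays, and the difference of differences was not tried. Groups came from the sample labels. No 2 arrays held the same values. Alternatives changed the scaling, the pseudocount, the filter, the probe set, the arrays fitted and the replicates kept.

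Members and lists were chosen with earlier results of these data known, so the shares called within lists are descriptions and no separate support. The text names the 12 highest and 12 lowest genes that passed and whose arrays did not overlap, the 6 highest and 6 lowest differences of differences among them, Gjd2, Slc32a1, Isl1 and Otx2, and members of 27 gene lists (615 symbols, 555 measured). In each list these are the members that define it and those with the largest differences that passed. Members that did not pass were named for their roles, and some were chosen after their values were seen.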

Additional observations from a re-analysis of the deposited data

Results flagged for a closer look

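The difference between AII and ON bipolar cells departed from that between MP amacrine and MP bipolar cells, by limma's test of the difference of differences, for 1842 genes. Among the marker genes, Gjd2 (1.84 ± 0.25, adjusted p = 6.64e-05) measured 0.98 for AII minus ON bipolar cells and -0.86 for MP amacrine minus MP bipolar cells. Isl1 (-3.78 ± 0.54, adjusted p = 9.82e-05) measured -3.08 and 0.70. The positive departures, on the log2 scale, were 7.15 for Rbfox1, 6.74 for Cdh1, 6.70 for Ccsap, 6.34 for Ntrk3, 6.21 for Cbln4 and 6.19 for Fat3. Their adjusted p-values in that limma test ran from 5.97e-09 (Ntrk3) to 1.68e-06 (Cbln4). Of these genes, Rbfox1, Cdh1, Cbln4 and Fat3 were also high in another amacrine subtype, so their departures are not traits of AII cells alone. The negative departures were -8.77 for Pcdh8, -7.40 for Sulf2, -6.90 for Chodl, -6.15 for Ntng1, -6.13 for Shisal1 and -5.92 for Gm4792, with adjusted p-values from 4.96e-10 (Sulf2) to 1.76e-06 (Shisal1). The 2 pairs also differ in reporter, antibody gate and strain, which cannot be told apart from the cell types.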

How the results depend on the processing

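Of 129 named genes that passed between AII and ON bipolar cells, 107 kept their direction and call in every one of 19 alternative settings in which they were tested, and 123 did so in the settings other than the choice of probe set. The choice of probe set moved the counts most: with the second brightest probe set, for which 6267 genes could be tested, 476 genes were higher and 481 lower in AII (49.7% higher, against 38.1%), and 564 differed between the 2 pairs of sorts. In that setting Gnao1 turned to 0.28, and 15 of 68 named genes fell short of the call (Slc32a1, Prox1, Ret, Gng13, Lrp2bp, Gjc1, Mpdz, Crx, Slc1a2, Grm5, Grik1, Glra1, Rab3c, Kcna4 and Sdk2). The rest of the 129 had no second probe set or one too dim to be tested. Genes such as Stk32b (-0.30), Cacng5 (-0.26), Gabra3 (-0.23), Grid1 (-0.09) and Glra3 (-0.01 on the second probe set) are therefore not counted as failures. Leaving out 1 array at a time gave 772 to 946 genes higher in AII, 1152 to 1632 lower and 1212 to 1826 differing between the pairs, the lowest of the last being without AII replicate 2. Counts within 1.5 times of those reported came from the other settings. The scalings moved the median of all genes to between -0.07 and 0 from -0.04. Whether replicate numbers pair the samples was not decided by a check of their deviations, for which no threshold was set. The correlation was 0.17 between AII and ON bipolar cells. Over 78 pairs of subtypes it ran from -0.23 to 0.37 with a median of 0.03, and 21 pairs were over 0.1. With the replicate block 944 genes were higher, 1527 lower and 1937 differed between the pairs of sorts. Genes near the floor of 4.09 have understated differences, and 2 arrays a group limit the precision of each.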
